A study of Mus musculus with 19 samples.

Results

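A set of 10 genes that build or bind the microtubules of young neurons or mediate their contacts was followed in the mouse cerebellum: the doublecortin gene Dcx, the beta-tubulin genes Tubb3 and Tubb2b, the stathmin genes Stmn1, Stmn2 and Stmn4, the genes of the microtubule-associated proteins Map2 and Mapt, and the contactin genes Cntn1 and Cntn2. The members were chosen by name, and all 10 were found among the 22193 genes of the deposited tables, 9 under these symbols and Map2 under its older symbol Mtap2. The 19 libraries were made from total RNA of the cerebellum of as many C57BL/6 mice at postnatal day 60. Wild-type animals gave 3 libraries (Ctrl), animals with a conditional knockout of Gsa by Olig1Cre gave 8 (Olig1-Gnas), and those with a conditional knockout of Gsa by hGFAPCre gave another 8 (hGFAP-Gnas). Gsa is the G protein alpha subunit that stimulates adenylyl cyclase, and its gene is Gnas. The labels give no Cre-only or floxed-only control, and the names of the hGFAP-Gnas files carry the word tumor while those of Olig1-Gnas do not. Olig1Cre is known to act in oligodendrocyte lineage progenitors and hGFAPCre in radial glia and their neural progeny, so neither deletion is limited to granule cells.

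Granule neurons are the most abundant neurons of the cerebellum, and they arise from dividing progenitors in the external granule layer of the newborn. When a progenitor leaves the cell cycle it extends axons, migrates inward along glial fibres and forms synapses, and the proteins on its microtubules change as it does so. Doublecortin and the stathmins are known for the migrating and growing phases, tau (the product of Mapt) and contactin 1 for axons that have formed or are being myelinated, and contactin 2, also called TAG-1, for the young postmitotic granule cell before it migrates.

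The promoters of a gene that moved by a large factor, one that moved by a small factor and one that was not called are shown for reference. RefSeq promoter entries matched 5 of the 10 members (Dcx, Tubb3, Map2, Cntn1 and Cntn2). The sequences are the 250 bases before the annotated start, read 5′ to 3′ on the gene's strand in GRCm38.p6, a later build than that of the expression tables, and capitals mark motif matches.
Dcx, chrX:143933220-143933469, minus strand: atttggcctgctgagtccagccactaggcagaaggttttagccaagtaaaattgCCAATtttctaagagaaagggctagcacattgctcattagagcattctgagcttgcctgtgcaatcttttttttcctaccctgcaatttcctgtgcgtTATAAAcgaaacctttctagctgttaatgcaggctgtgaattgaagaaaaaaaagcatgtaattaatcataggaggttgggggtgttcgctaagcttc
Tubb3, chr8:123411303-123411552, plus strand: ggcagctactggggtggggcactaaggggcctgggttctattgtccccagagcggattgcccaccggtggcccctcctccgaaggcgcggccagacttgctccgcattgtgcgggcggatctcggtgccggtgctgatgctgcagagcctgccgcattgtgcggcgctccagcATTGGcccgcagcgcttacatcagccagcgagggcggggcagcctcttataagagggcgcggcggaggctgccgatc
Map2, chr1:66175079-66175328, plus strand: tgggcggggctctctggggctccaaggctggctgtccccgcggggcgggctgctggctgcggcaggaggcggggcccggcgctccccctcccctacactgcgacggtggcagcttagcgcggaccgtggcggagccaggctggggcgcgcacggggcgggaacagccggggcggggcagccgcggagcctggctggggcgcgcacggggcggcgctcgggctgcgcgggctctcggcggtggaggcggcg
The motifs searched on both strands were CAGCTG and CAGATG (E-boxes, letters bound by basic helix-loop-helix factors), the nuclear factor I palindrome (TTGGC and GCCAA with 5 bases between them), TATAAA (the TATA box) and CCAAT (the CCAAT box). In the Dcx window shown, TATAAA lay 98 to 93 bases before the start and CCAAT 196 to 192 bases before it. A second, overlapping Dcx entry (chrX:143933125-143933374) held TATAAA 193 to 188 bases before its own start and no CCAAT. The Tubb3 window held the CCAAT box on the opposite strand, as ATTGG, 77 to 73 bases before the start, and the Map2 window held none of these letters. Over all 32851 promoters of this length, TATAAA was present in 12.4%, CCAAT in 33.8%, CAGCTG in 13%, CAGATG in 14.4% and the nuclear factor I palindrome in 0.0365%. Base composition differed between the windows, with 41.6% G and C for Dcx, 68.0% for Tubb3 and 81.2% for Map2, beside a median of 52.4% over all promoters. A match is a string of letters and no evidence of binding.

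Levels are FPKM, fragments per kilobase of transcript scaled to the mapped fragments of the library, as the authors deposited them, and differences are log2 folds of FPKM + 1 with their standard error. A gene was called at a Benjamini-Hochberg adjusted p under 0.05 in limma, adjusted over all genes tested, and all 10 members passed the filter on low values in every comparison. FPKM summed to between 505739 and 689165 per library, and read totals are not given in the sources used here. Steps among low values separated deeper libraries (2 Ctrl, 4 Olig1-Gnas, 4 hGFAP-Gnas) from shallower ones (1, 4 and 4). The targeted gene could be read only in part: Gnas was above 0 in 2 of 3 Ctrl and 5 of 8 Olig1-Gnas libraries of one table, at 651 to 798 FPKM and 24.05 to 121 FPKM, and in 1 of 3 Ctrl and 1 of 8 hGFAP-Gnas libraries of the other, at 798 and 40.9 FPKM, and all others are listed at 0. The library labelled hGFAP-Gnas 1 stood apart from its group, with 9 mitosis markers summing to 15.8 FPKM, where the Ctrl libraries held 2.05 to 3.89 FPKM and the 8 Olig1-Gnas libraries 495 to 987 FPKM. The folds of the members called in hGFAP-Gnas, and the ratios, are given with and without it. The Y-linked gene Ddx3y stood at 1 FPKM or more in 7 of 8 hGFAP-Gnas libraries but in 2 of 8 from Olig1-Gnas mice and 2 of 3 from Ctrl mice, so the groups are unbalanced in it. A fit with this signal as a term is given where it changes a call or moves a named fold. Between hGFAP-Gnas and Ctrl that term rests on the libraries without the signal, Ctrl 3 and hGFAP-Gnas 3.

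The 10 genes did not move as a block. All but Dcx stood at 54.7 FPKM or more in every Ctrl library, so in the adult cerebellum the set as a whole did not mark young neurons alone. In Olig1-Gnas 4 members rose (Dcx, Tubb3, Tubb2b and Stmn1), 3 fell (Stmn2, Mapt and Cntn1) and 3 were not called (Stmn4, Map2 and Cntn2). Of all 14183 genes tested 59.8% were called, 36.2% higher and 23.6% lower, so 7 of 10 called members is near the background. The median log2 fold of the members was 0.05, beside 0.22 over all genes. In hGFAP-Gnas 4 members rose (Dcx, Tubb3, Tubb2b and Stmn1), Cntn1 fell and 5 were not called, where 38.9% of 14305 genes were called, 26.1% higher and 12.8% lower, and the medians were 0.42 for the members and 0.19 for all genes. The knockouts share their 3 Ctrl libraries, so their folds are set side by side and are not independent. In whole tissue, fewer cells of a type and less RNA per cell cannot be told apart.

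**Figure D1:**
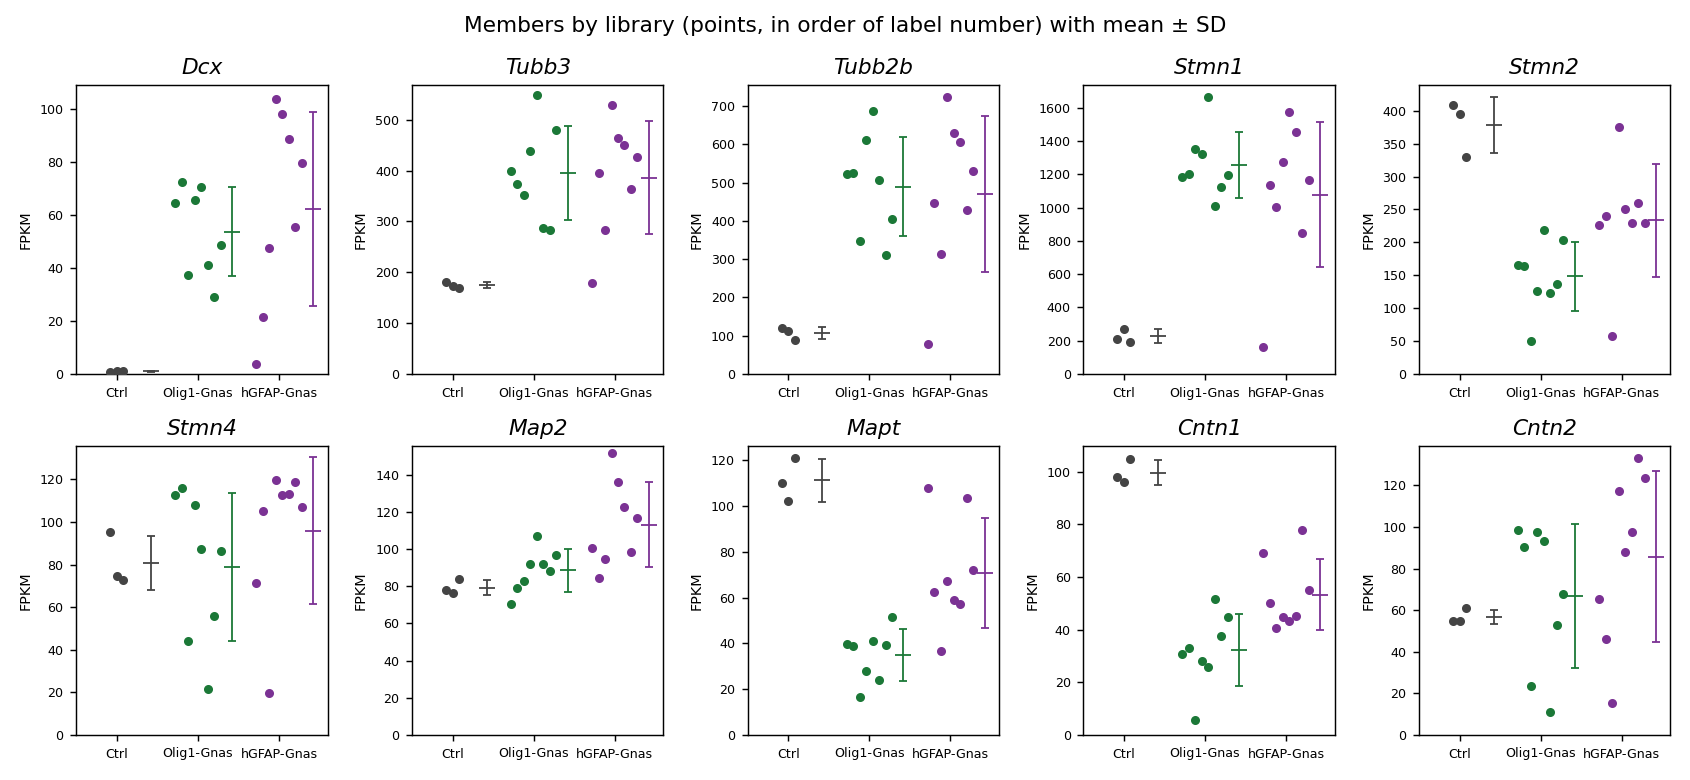
FPKM of each member (linear axes from 0, 1 panel per gene), with 1 point per library in the 3 Ctrl, 8 Olig1-Gnas and 8 hGFAP-Gnas libraries and the group mean ± SD beside them. Dcx, Tubb3, Tubb2b and Stmn1 stand above Ctrl in all 8 Olig1-Gnas libraries, while hGFAP-Gnas 1 lies near Ctrl, at 3.96 FPKM for Dcx and 162 FPKM for Stmn1.

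Dcx (chrX:140290384-140367762, mm9) encodes doublecortin, which stabilises microtubules in migrating neurons. It stood at 0.98, 1.05 and 1.31 FPKM in the Ctrl libraries. In Olig1-Gnas it ranged from 28.9 FPKM over a median of 56.5 to 72.2 FPKM, and in hGFAP-Gnas from 3.96 over 67.4 to 104 FPKM. It was barely detected in wild-type cerebellum at this age, and every knockout library lay above every Ctrl library. Means were 1.11 ± 0.176 FPKM (SD, n = 3), 53.6 ± 16.7 FPKM (SD, n = 8) and 62.3 ± 36.5 FPKM (SD, n = 8). The ratio of means to Ctrl was 48.1 in Olig1-Gnas and 56.0 in hGFAP-Gnas. Adding 1 FPKM lowers the log2 fold of a gene this low in Ctrl. The log2 fold was 4.63 ± 0.27 in Olig1-Gnas (limma, adjusted p = 4.92e-08) and 4.47 ± 0.80 in hGFAP-Gnas (adjusted p = 0.00699), and without hGFAP-Gnas 1 the latter was 4.93. It was the lowest member in Ctrl, and in the knockouts its range overlapped those of its neighbours in the order of levels, Cntn2 and Mapt in Olig1-Gnas and Mapt and Cntn1 in hGFAP-Gnas. Within hGFAP-Gnas it spread 26.2-fold between the lowest and the highest library, the widest of the 10 members, and libraries 1 and 2 were lowest, at 3.96 and 21.5 FPKM.

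Tubb3 (chr8:125935463-125945910, mm9) encodes the neuronal class III beta-tubulin and Tubb2b (chr13:34218876-34222223, mm9) a beta-tubulin isotype of developing neurons. Tubb3 stood at 181, 173 and 170 FPKM in Ctrl, from 284 over a median of 386 to 549 FPKM in Olig1-Gnas, and from 179 over 411 to 528 FPKM in hGFAP-Gnas. Tubb2b stood at 121, 113 and 88.9 FPKM in Ctrl, from 312 over 515 to 687 FPKM in Olig1-Gnas, and from 79.1 over 488 to 723 FPKM in hGFAP-Gnas. Both genes were already high in Ctrl, no Olig1-Gnas library overlapped Ctrl, and in hGFAP-Gnas the single library within or under the Ctrl range was library 1. Tubb3 rose by a log2 fold of 1.14 ± 0.19 (limma, adjusted p = 0.000310) in Olig1-Gnas and 1.07 ± 0.30 (adjusted p = 0.0197) in hGFAP-Gnas. Tubb2b rose by 2.14 ± 0.23 (limma, adjusted p = 9.81e-06) and 1.91 ± 0.56 (adjusted p = 0.0234). Without hGFAP-Gnas 1 the hGFAP-Gnas folds were 1.22 for Tubb3 and 2.24 for Tubb2b. Tubb2b has a near-identical relative, Tubb2a, and how the counting split reads between tubulin copies is not given in the sources used here. Tubb2a stood at 145 ± 14.5 FPKM in Ctrl, 301 ± 87.8 FPKM in Olig1-Gnas (log2 fold 1.00 ± 0.24) and 327 ± 112 FPKM in hGFAP-Gnas (1.08 ± 0.33), and is named for this likeness, with its values seen.

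The balance of the pair shifted toward Tubb2b in Olig1-Gnas. The ratio of Tubb2b to Tubb3 within a library was 0.668, 0.652 and 0.523 in Ctrl, and ran from 0.845 over a median of 1.28 to 1.77 in Olig1-Gnas and from 0.442 over 1.21 to 1.37 in hGFAP-Gnas. No Olig1-Gnas library overlapped Ctrl, and the only hGFAP-Gnas library that did not lie above Ctrl was library 1. The mean log2 ratio rose from -0.71 ± 0.19 (SD, n = 3) to 0.30 ± 0.33 (SD, n = 8) in Olig1-Gnas, a difference of 1.00 (two-sided exact permutation test, p = 0.00606, the smallest that 165 arrangements can give, adjusted p = 0.0182 over the 9 ratio tests). In hGFAP-Gnas the difference was 0.83 (two-sided exact permutation p = 0.0242, adjusted p = 0.0545), and without hGFAP-Gnas 1 it was 1.02 (exact permutation, adjusted p = 0.0187). As all libraries but that one lay above Ctrl, leaving it out fixes the p at its smallest possible value, which is no separate evidence. Leaving out any 1 Ctrl library ended the call in Olig1-Gnas (exact permutation, adjusted p = 0.0545), where fewer arrangements remain.

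Stmn1 (chr4:134024234-134029758, mm9) encodes stathmin 1, a tubulin-binding protein that promotes microtubule disassembly and is abundant in dividing and immature cells. It stood at 213, 274 and 194 FPKM in Ctrl, from 1009 over a median of 1197 to 1661 FPKM in Olig1-Gnas, and from 162 over 1151 to 1572 FPKM in hGFAP-Gnas. It was the member with the highest mean in both knockouts, and in Olig1-Gnas no other member reached its range. All knockout libraries but hGFAP-Gnas 1 lay above Ctrl, and that library lay below it. The log2 fold was 2.46 ± 0.16 (limma, adjusted p = 1.10e-07) in Olig1-Gnas and 2.04 ± 0.58 (adjusted p = 0.0218) in hGFAP-Gnas, and without hGFAP-Gnas 1 the latter was 2.40.

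Stmn2 (chr3:8509526-8561604, mm9) encodes stathmin 2, or SCG10, of growing and regenerating axons. It was the member with the highest level in Ctrl, at 409, 396 and 329 FPKM, and fell to between 50.9 and 218 FPKM in Olig1-Gnas, with a median of 151 FPKM. In hGFAP-Gnas it ran from 57.7 over 235 to 375 FPKM, and library 4 lay within the Ctrl range while the others lay below it. The log2 fold was -1.44 ± 0.35 (limma, adjusted p = 0.00364) in Olig1-Gnas and -0.83 ± 0.44 (adjusted p = 0.146) in hGFAP-Gnas, where it was not called. With Ddx3y signal as a term it was called lower there (-1.10, limma, adjusted p = 0.0223). That term rests on Ctrl 3 and hGFAP-Gnas 3, each the lowest library of its group for Stmn2. Stmn4 (chr14:66963211-66980517, mm9), the gene of stathmin 4 of the nervous system, stood at 95.4, 74.4 and 72.8 FPKM in Ctrl, from 21.4 over 86.8 to 116 FPKM in Olig1-Gnas and from 19.8 over 110 to 120 FPKM in hGFAP-Gnas. Knockout libraries lay on both sides of Ctrl, and it was not called, with log2 folds of -0.20 (95% interval -1.17 to 0.78) and 0.10 (-0.94 to 1.13).

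Stmn1 thus stood above Stmn2 in every knockout library other than hGFAP-Gnas 1. Stmn2 exceeded Stmn1 in every Ctrl library, with Stmn1 to Stmn2 ratios of 0.520, 0.692 and 0.589. In Olig1-Gnas the ratio ran from 5.87 over a median of 7.90 to 26.5, and in hGFAP-Gnas from 0.716 over 4.91 to 17.4. Neither knockout overlapped Ctrl, though hGFAP-Gnas 1 lay just above it. The mean log2 ratio was -0.74 ± 0.21 (SD, n = 3) in Ctrl, 3.16 ± 0.66 (SD, n = 8) in Olig1-Gnas and 2.12 ± 1.29 (SD, n = 8) in hGFAP-Gnas. The difference from Ctrl was 3.90 in Olig1-Gnas and 2.86 in hGFAP-Gnas, each with a two-sided exact permutation p of 0.00606, the smallest possible, and an adjusted p of 0.0182. In every Olig1-Gnas library Stmn1 lay above Ctrl and Stmn2 below it. The ratio there could thus not overlap Ctrl, and its p adds no evidence to that of the 2 genes. Without hGFAP-Gnas 1 the difference in hGFAP-Gnas was 3.24. Leaving out any 1 Ctrl library ended both calls (exact permutation, adjusted p = 0.0545 and 0.0667), where fewer arrangements remain. Between the knockouts the difference was -1.04 (two-sided exact permutation p = 0.0502, adjusted p = 0.0857), without hGFAP-Gnas 3 it was -1.32 (exact permutation, adjusted p = 0.00420), and without hGFAP-Gnas 1 it was -0.67 (adjusted p = 0.133).

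**Figure D2:**
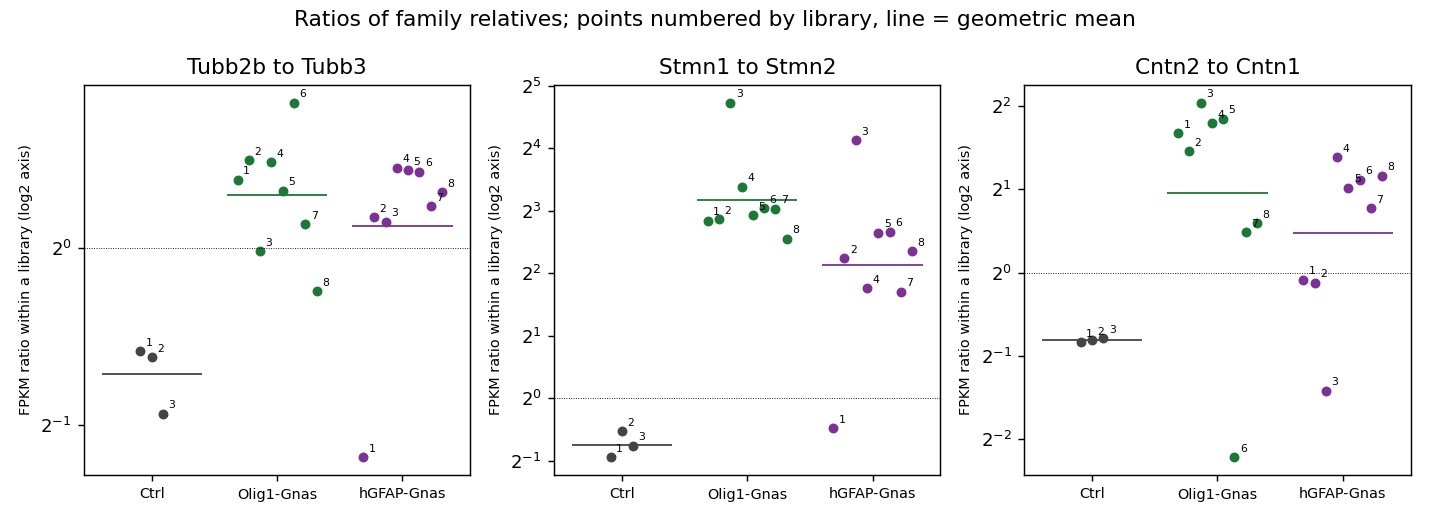
FPKM ratios within a library for the pairs Tubb2b to Tubb3, Stmn1 to Stmn2 and Cntn2 to Cntn1 on log2 axes, with points numbered by library in Ctrl, Olig1-Gnas and hGFAP-Gnas and lines at the geometric mean. The Stmn1 to Stmn2 ratio lies under 1 in the 3 Ctrl libraries and in hGFAP-Gnas 1 (0.716) and above 1 in the other knockout libraries.

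Map2 (chr1:66221902-66489157, mm9), the gene of the dendritic microtubule-associated protein 2, varied least between the libraries of each knockout. It stood at 78.0, 76.2 and 83.7 FPKM in Ctrl, from 70.3 over a median of 90.1 to 107 FPKM in Olig1-Gnas and from 84.6 over 109 to 152 FPKM in hGFAP-Gnas. Olig1-Gnas overlapped Ctrl, while all 8 hGFAP-Gnas libraries lay above it, the lowest by less than 1 FPKM. The log2 fold was 0.15 (95% interval -0.12 to 0.42) in Olig1-Gnas and 0.49 ± 0.18 in hGFAP-Gnas (limma, adjusted p = 0.0559), and the first turned to -0.07 under quantile normalization. Without hGFAP-Gnas 1 the adjusted p for hGFAP-Gnas was 0.0326, without hGFAP-Gnas 2 it was 0.0302, and in both cases Map2 was called higher.

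Mapt (chr11:104092749-104193407, mm9), the gene of the axonal protein tau, stood at 110, 102 and 121 FPKM in Ctrl. It fell to between 16.3 and 51.5 FPKM in Olig1-Gnas, with a median of 39.1 FPKM, and ran from 36.7 over 64.9 to 108 FPKM in hGFAP-Gnas. Every Olig1-Gnas library lay below Ctrl, whereas hGFAP-Gnas 1 and 7, at 108 and 104 FPKM, lay within the Ctrl range. The log2 fold was -1.72 ± 0.28 (limma, adjusted p = 0.000266) in Olig1-Gnas and -0.71 ± 0.28 (adjusted p = 0.0610) in hGFAP-Gnas, where it was not called. It was called lower in hGFAP-Gnas without library 1 (log2 fold -0.81, limma, adjusted p = 0.0150) or without library 7 (-0.80, adjusted p = 0.0366). It was also called lower with Ddx3y signal as a term (-0.81, limma, adjusted p = 0.0391). That term rests on Ctrl 3 and hGFAP-Gnas 3, the highest Ctrl and the lowest hGFAP-Gnas library for Mapt.

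Cntn1 (chr15:91881595-92172398, mm9) encodes contactin 1, an adhesion molecule of axons and of the junctions beside nodes of Ranvier. It stood at 97.9, 96.0 and 105 FPKM in Ctrl, from 5.67 over a median of 31.9 to 51.5 FPKM in Olig1-Gnas and from 40.6 over 47.6 to 77.7 FPKM in hGFAP-Gnas. No knockout library reached the Ctrl range, and Cntn1 was the only member called lower in both knockouts. The log2 fold was -1.78 ± 0.49 (limma, adjusted p = 0.00810) in Olig1-Gnas and -0.92 ± 0.20 (adjusted p = 0.0101) in hGFAP-Gnas, or -0.98 without hGFAP-Gnas 1. The call in hGFAP-Gnas ended without Ctrl 2 (-0.95, adjusted p = 0.0502), a loss at nearly the same fold.

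Cntn2 (chr1:134406001-134439517, mm9), the gene of contactin 2, stood at 54.9, 54.7 and 60.8 FPKM in Ctrl, from 11.1 over a median of 78.9 to 98.4 FPKM in Olig1-Gnas and from 15.2 over 92.9 to 133 FPKM in hGFAP-Gnas. Its libraries lay far on both sides of a narrow Ctrl range: Olig1-Gnas 3 and 6 and hGFAP-Gnas 3 held 23.3, 11.1 and 15.2 FPKM, while 5 Olig1-Gnas and 6 hGFAP-Gnas libraries lay above every Ctrl library. It was not called, with log2 folds of -0.05 (95% interval -1.40 to 1.29) for Olig1-Gnas and 0.35 (-0.84 to 1.55) in hGFAP-Gnas, intervals wide enough to hold a rise or a fall of more than 1.5 times. The Cntn2 to Cntn1 ratio was 0.561, 0.570 and 0.579 in Ctrl, from 0.216 over 2.97 to 4.11 in Olig1-Gnas and from 0.375 over 1.87 to 2.61 in hGFAP-Gnas. The mean log2 ratio differed from Ctrl by 1.73 in Olig1-Gnas (two-sided exact permutation p = 0.0667, adjusted p = 0.0857) and by 1.28 in hGFAP-Gnas (p = 0.0606, adjusted p = 0.0857, exact permutation), or 1.36 without hGFAP-Gnas 1. A single library in each model lay below Ctrl, Olig1-Gnas 6 and hGFAP-Gnas 3. Without it the difference was 2.17 and 1.54, each at an adjusted p of 0.0187 by exact permutation. These libraries were singled out because they lay below Ctrl, and all others of their group lay above it. That p is therefore fixed at its smallest possible value by the choice of library, and the ratio remains not called.

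**Figure D3:**
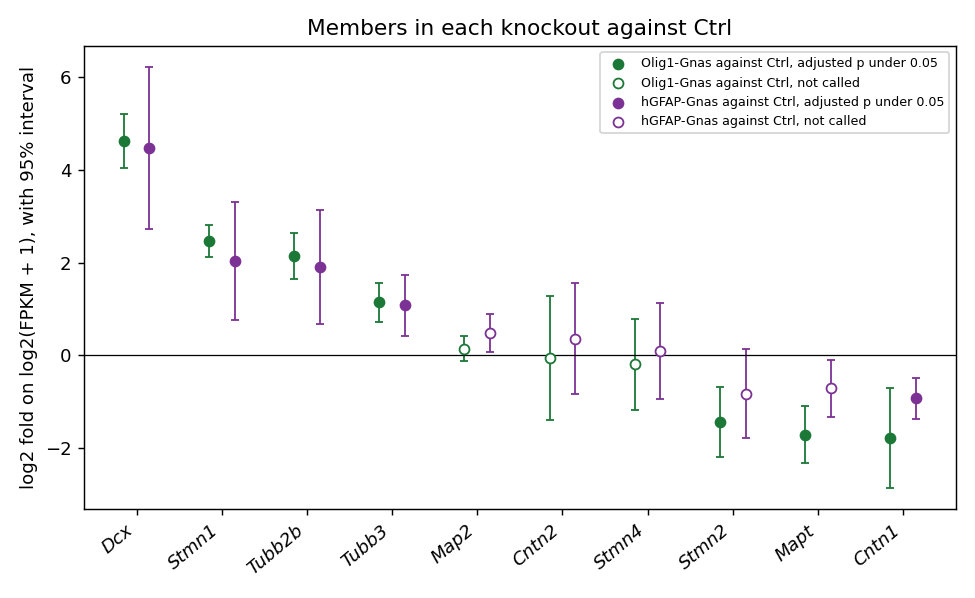
Log2 fold of FPKM + 1 against Ctrl for the 10 members in Olig1-Gnas (green) and hGFAP-Gnas (purple), with 95% intervals and filled points for adjusted p under 0.05. Dcx has the highest fold in both, 4.63 and 4.47, and the intervals of Cntn2 and Stmn4 cross 0 in both.

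By the separation of libraries, the 7 called members did not overlap Ctrl in Olig1-Gnas and the 3 others did, where 53.7% of all genes did not overlap, 32.2% above and 21.5% below Ctrl. In hGFAP-Gnas 3 members (Dcx, Map2 and Cntn1) did not overlap Ctrl, where 23.8% of all genes did not, 15.2% above and 8.56% below Ctrl. In hGFAP-Gnas leaving out any 1 of Ctrl 1, 2 or 3 left 1 member called higher, Dcx, with Tubb3, Tubb2b and Stmn1 at adjusted p between 0.0653 and 0.0845 and log2 folds of 1.06 to 2.18. Leaving out hGFAP-Gnas 1 gave 5 higher members, with Map2 added, and 2 lower, with Mapt added. Within depth classes, the deeper libraries gave 4 higher and 3 lower in Olig1-Gnas and none in hGFAP-Gnas, where these libraries include hGFAP-Gnas 1 and 6 of all genes were called, and the shallower ones gave 4 higher and 1 lower in Olig1-Gnas and 4 higher and 0 lower in hGFAP-Gnas. The shallower class holds 1 Ctrl library, so its counts compare the knockouts with a single library, whose spread is taken from the knockout libraries.

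Between hGFAP-Gnas and Olig1-Gnas none of the 10 members was called by limma, where 0.410% of 14386 genes were (0.264% higher, 0.146% lower), and 3 members had an unadjusted p under 0.05. All 10 members overlapped between the knockouts, where 0.598% of genes did not, 0.292% higher and 0.306% lower in hGFAP-Gnas. The members with an unadjusted p under 0.05 were Mapt, Cntn1 and Map2. Mapt had a log2 fold of 1.00 ± 0.24 (hGFAP-Gnas minus Olig1-Gnas, unadjusted p = 5.71e-04 and adjusted p = 0.0714 by limma). Cntn1 stood at 0.86 ± 0.32 (limma, adjusted p = 0.166) and Map2 at 0.34 ± 0.13 (adjusted p = 0.169). Mapt was called higher without hGFAP-Gnas 3 (log2 fold 1.13, limma, adjusted p = 0.0407) and in 1 fit over the 3 groups (adjusted p = 0.0344), whereas with Ddx3y signal as a term its fold was 0.53 (adjusted p = 0.906). Over all alternatives the Mapt fold ran from 0.53 to 1.26. The intervals of the others do not exclude sizable differences: for Dcx the fold was -0.16 (95% interval -1.24 to 0.93, and 0.31 without hGFAP-Gnas 1), for Tubb2b -0.23 (-1.0 to 0.53, and 0.10 without hGFAP-Gnas 1) and for Stmn1 -0.43 (-1.19 to 0.34). That a fold against Ctrl was called for Stmn2 and Mapt in Olig1-Gnas alone is therefore not shown to be a difference between the models.

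In Ctrl the order of mean FPKM was Stmn2, Stmn1, Tubb3, Mapt, Tubb2b, Cntn1, Stmn4, Map2, Cntn2 and Dcx, and the libraries of Mapt and Tubb2b, Tubb2b and Cntn1, and Stmn4 and Map2 overlapped. In Olig1-Gnas it was Stmn1, Tubb2b, Tubb3, Stmn2, Map2, Stmn4, Cntn2, Dcx, Mapt and Cntn1, in which Stmn1 stood clear of Tubb2b and Tubb3 clear of Stmn2, and all later neighbours overlapped. In hGFAP-Gnas the order was the same except that Mapt stood before Dcx, and all neighbours overlapped. FPKM is scaled by transcript length, so these are levels compared between genes.

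Markers of other cells moved with the members. In Olig1-Gnas all 9 mitosis markers and 6 of 9 granule progenitor markers were higher, and 9 of 10 mature granule neuron markers, 10 of 10 Purkinje markers, 7 of 8 inhibitory interneuron markers and 8 of 8 oligodendrocyte markers were lower. In hGFAP-Gnas these counts were 9, 6, 7, 9, 7 and 2. Of all genes tested 36.2% were higher and 23.6% lower in Olig1-Gnas, and 26.1% and 12.8% in hGFAP-Gnas. The mature granule neuron markers summed to 2301 to 2975 FPKM in Ctrl, 95.4 to 760 FPKM in Olig1-Gnas and 197 to 2032 FPKM in hGFAP-Gnas, and the Purkinje markers to 3607 to 5459, 31.4 to 1027 and 148 to 2724 FPKM. The oligodendrocyte markers summed to 876 to 1112, 22.3 to 294 and 154 to 938 FPKM. Of 8 microglia and macrophage markers 7 rose in Olig1-Gnas and 8 in hGFAP-Gnas, with sums of 57.4 to 87.3, 481 to 1756 and 120 to 1060 FPKM. Of 9 Bergmann glia and astrocyte markers 6 were lower and 1 higher in Olig1-Gnas, and 3 lower and 1 higher in hGFAP-Gnas, with sums of 2585 to 3383, 191 to 1497 and 902 to 3087 FPKM. Oligodendrocyte precursor markers went the other way from the oligodendrocyte markers, with 3 of 6 higher in Olig1-Gnas and 5 of 6 in hGFAP-Gnas, and sums of 54.9 to 64.6, 137 to 309 and 87.8 to 536 FPKM. No gene of any marker list was at 0 in all libraries of a group, and the part of these cells in the members' changes was not tested.

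Within the knockout groups, Mapt followed the summed level of the 10 mature granule neuron markers. Over the 8 Olig1-Gnas libraries Pearson's r was 0.933 (two-sided exact permutation, p = 0.000298, adjusted p = 0.00595 over 20 tests) and Spearman's rho 0.881 (adjusted p = 0.0483), and r was 0.852 without the 2 libraries farthest from the median, Olig1-Gnas 3 and 8. Over the 8 hGFAP-Gnas libraries r was 0.903 (exact permutation, p = 0.00159, adjusted p = 0.0159) and rho 0.929 (adjusted p = 0.0446), with r = 0.735 without hGFAP-Gnas 1 and 3. Cntn1 did so in hGFAP-Gnas (r = 0.871, exact permutation, adjusted p = 0.0223, rho = 0.881, adjusted p = 0.0483, and r = 0.806 without hGFAP-Gnas 1 and 3), but in Olig1-Gnas r was 0.60 (adjusted p = 0.293) and -0.27 without Olig1-Gnas 3 and 8, so there the value rests on those libraries. None of the members that rose in both knockouts passed in either group, and their adjusted p was at least 0.223 by Pearson's r with exact permutation. In hGFAP-Gnas their r was -0.657 for Dcx, -0.398 for Tubb3, -0.509 for Tubb2b and -0.644 for Stmn1, and without hGFAP-Gnas 1 and 3 it was -0.745, -0.774, -0.859 and -0.930, values of 6 libraries that were not tested. The libraries formed no separate clusters on this measure, and each depth class held 4 libraries of a knockout, too few for a value within it. In hGFAP-Gnas the Purkinje and oligodendrocyte sums were, like this sum, highest in libraries 1, 2 and 7 and lowest in library 3. The relations of Mapt and Cntn1 are therefore not shown to be particular to granule neurons, and those to other sums were not tested.

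**Figure D4:**
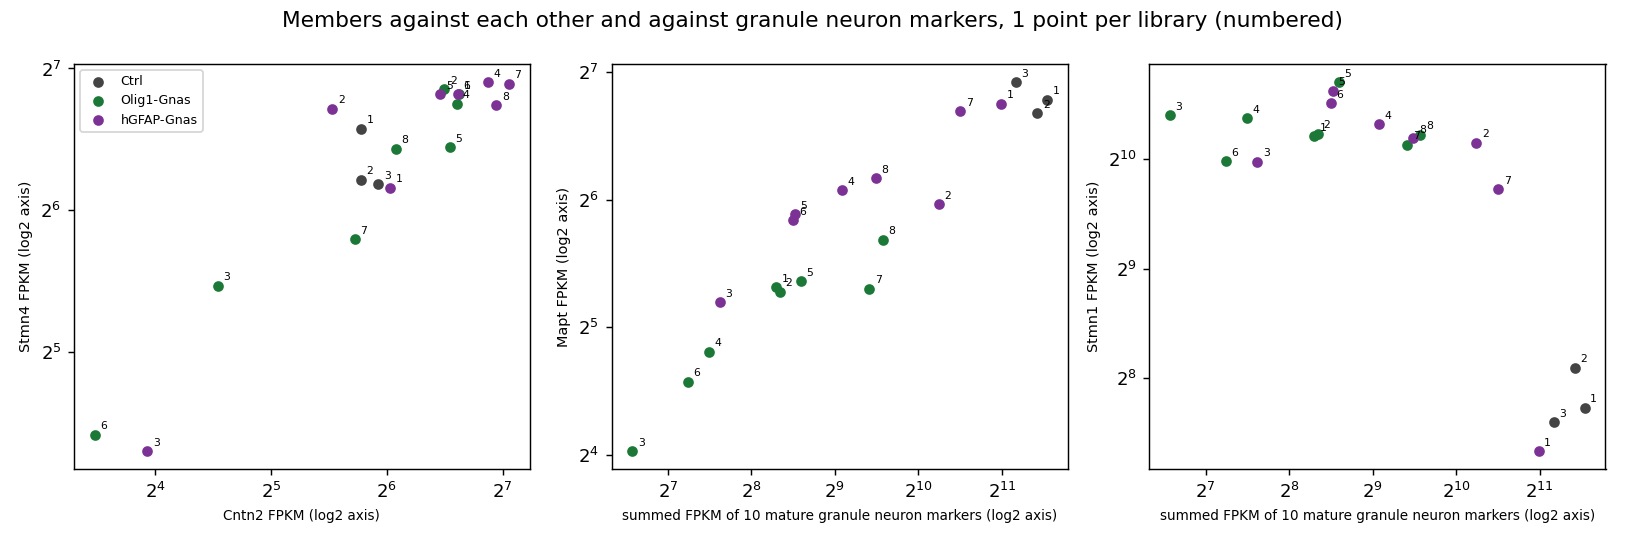
Each point is 1 library, numbered and coloured by group, on log2 axes: Stmn4 against Cntn2 FPKM (left), and Mapt (middle) and Stmn1 (right) FPKM against the summed FPKM of 10 mature granule neuron markers. Mapt is lowest where the markers are lowest, Olig1-Gnas 3 at 16.3 FPKM, whereas Stmn1 lies between 845 and 1661 FPKM in every knockout library other than hGFAP-Gnas 1.

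Most pairs of members were not shown to vary together between libraries of a model. All 45 pairs were tested in each knockout group by Pearson's r and Spearman's rho with exact permutation. Each measure was adjusted over its own 90 tests, and these tests were chosen after the values were seen. The pair of Tubb3 and Tubb2b in hGFAP-Gnas passed by both measures (r = 0.980, exact permutation, adjusted p = 0.00223, rho = 1.00, adjusted p = 0.00446, and r = 0.980 without hGFAP-Gnas 1 and 3), and no other pair did. By Pearson's r alone (exact permutation), Stmn4 with Cntn2 and Stmn2 with Mapt (r = 0.920, adjusted p = 0.0165) passed in Olig1-Gnas. In hGFAP-Gnas Stmn2 with Stmn4 (r = 0.955, exact permutation, adjusted p = 0.0141) and Mapt with Cntn1 (r = 0.907, adjusted p = 0.0165) did so. Stmn4 and Cntn2 were low in the same 3 libraries: Stmn4 held 44.3, 21.4 and 19.8 FPKM in Olig1-Gnas 3 and 6 and hGFAP-Gnas 3. For this pair r was 0.974 in Olig1-Gnas (exact permutation, adjusted p = 0.0141), rho was 0.857 (adjusted p = 0.0804) and r was 0.897 without those 2 Olig1-Gnas libraries. In hGFAP-Gnas r was 0.907 (exact permutation, adjusted p = 0.145), rho was 0.786 (adjusted p = 0.148) and r was 0.658 without hGFAP-Gnas 1 and 3. In the same 3 libraries the mature granule neuron markers summed to 95.4, 151 and 197 FPKM, the lowest of Olig1-Gnas, the second lowest of Olig1-Gnas and the lowest of hGFAP-Gnas, and their part was not tested.

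Genes whose pattern was most like that of 4 members were ranked by the smaller of the Pearson correlations within the 8 Olig1-Gnas and within the 8 hGFAP-Gnas libraries, over 13905 genes, as a description. Those nearest to Dcx were Vash1 (0.959), which encodes a tubulin carboxypeptidase, Mfap3 (0.929) and Nkiras2 (0.919). Vash1 stood at 16.1 FPKM in Ctrl, 60.7 FPKM in Olig1-Gnas and 52.7 FPKM in hGFAP-Gnas (means). Nearest to Tubb3 were E130309F12Rik (0.878), Parp6 (0.870) and Nol4 (0.864), and among those nearest to Map2 were Tcerg1l (0.844) and Trim67 (0.823). Nearest to Cntn2 were Mmp24 (0.963), Map3k13 (0.955) and Zhx2 (0.936), whose means were lower in Olig1-Gnas than in Ctrl, at 38.7 against 82.4 FPKM for Mmp24 and 2.47 against 7.82 FPKM for Map3k13, while the mean of Cntn2 was not.

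Other genes of these families also moved in both directions. Over all genes 36.2% rose and 23.6% fell in Olig1-Gnas, and 26.1% and 12.8% in hGFAP-Gnas. The counts of this list and of those that follow are to be read beside these shares. Of 14 other tubulins tested 8 rose and 4 fell in Olig1-Gnas (median log2 fold 0.85, beside 0.22 for all genes), and 6 rose and 3 fell in hGFAP-Gnas (0.51, beside 0.19). Tubb5, a broadly expressed beta-tubulin gene, rose from 114 ± 6.22 FPKM in Ctrl to 1258 ± 225 FPKM in Olig1-Gnas (log2 fold 3.43 ± 0.17) and 905 ± 421 FPKM in hGFAP-Gnas (2.71 ± 0.62). The alpha-tubulin genes Tuba1a, Tuba1b and Tuba1c, which are near-identical copies, rose by 1.93, 1.86 and 1.86 in Olig1-Gnas and by 1.64, 1.39 and 1.47 in hGFAP-Gnas. Isotypes of mature brain fell: Tubb4a from 730 ± 103 FPKM to 127 ± 75.8 and 311 ± 159 FPKM (-2.72 ± 0.45 and -1.39 ± 0.43) and Tuba4a from 271 ± 44.4 FPKM to 18.1 ± 19.7 and 57.6 ± 61.4 FPKM (-4.64 ± 0.97 and -3.0 ± 0.90). Tuba8 fell by 4.39 and 2.94 on the log2 scale, and Tubg2, a gamma-tubulin, fell by 0.89 in Olig1-Gnas and was not called in hGFAP-Gnas (-0.53, limma, adjusted p = 0.266).

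Of 19 other microtubule-associated genes 3 rose and 11 fell in Olig1-Gnas (median -0.65), and 3 rose and 6 fell in hGFAP-Gnas (-0.36). The risen ones were the spindle genes Tpx2 (5.33 ± 0.20 and 4.47 ± 0.84) and Prc1 (4.56 ± 0.23 and 3.55 ± 0.71), which act on the microtubules of dividing cells, and the doublecortin-like kinase Dclk2 (0.73 ± 0.17 and 0.62 ± 0.20), whose call in hGFAP-Gnas ended under both other scalings. Map1a, of mature neurons, fell from 112 ± 27.3 FPKM to 12.9 ± 7.13 FPKM in Olig1-Gnas (-3.20 ± 0.47) and 38.7 ± 35.9 FPKM in hGFAP-Gnas (-1.97 ± 0.68). Tppp fell by 3.28 and 2.14, Map7d2 by 2.28 and 1.59 and Dclk3 by 1.88 and 1.48 on the log2 scale. Stmn3, the stathmin that is no member, fell from 554 ± 112 FPKM to 243 ± 49.6 FPKM in Olig1-Gnas (-1.19 ± 0.20, limma, adjusted p = 0.000296) and 306 ± 101 FPKM in hGFAP-Gnas (-0.89 ± 0.28, adjusted p = 0.0306). It was added for the family after its values were seen.

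Genes of microtubule ends, severing and tubulin modification showed no common direction: 13 of 36 rose and 12 fell in Olig1-Gnas (median 0.05), and 9 of 37 rose and 4 fell in hGFAP-Gnas (0.04). Of all genes 36.2% rose and 23.6% fell in Olig1-Gnas, and 26.1% and 12.8% in hGFAP-Gnas, so most of these counts are near the background. The plus-end genes Mapre1 and Mapre2 went opposite ways, with log2 folds of 2.04 ± 0.18 and -1.71 ± 0.19 in Olig1-Gnas and 1.59 ± 0.36 and -1.0 ± 0.36 in hGFAP-Gnas. Tacc3 (4.10 and 3.25), of the mitotic spindle, Fignl1 (3.56 and 3.20) and the dynein partner Nde1 (2.0 and 1.54) rose in both. The tubulin polyglutamylase Ttll7 (-3.57 and -2.24) and the plus-end gene Clip1 (-1.83 and -1.31) fell in both, as did the deglutamylase gene Agtpbp1 (-1.29 ± 0.18 and -0.87 ± 0.25). Mapre3 fell in Olig1-Gnas (-2.20 ± 0.40) and stood at -1.11 ± 0.46 in hGFAP-Gnas (limma, adjusted p = 0.0710).

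Among other contactins and L1 family adhesion genes 2 of 19 rose and 12 fell in Olig1-Gnas (median -1.41), and 1 rose and 8 fell in hGFAP-Gnas (-0.75). Cntn6 fell from 23.4 ± 4.02 FPKM to 2.33 ± 2.20 FPKM (-3.09 ± 0.45) and 5.34 ± 4.71 FPKM (-2.22 ± 0.50), Cntn4 by 2.48 and 1.71, and the L1 relative Chl1 by 2.33 and 1.40 on the log2 scale. The contactin partner Cntnap2 fell in both (-2.23 and -1.31), and Cntnap4 fell in Olig1-Gnas (-2.37) and stood at -1.26 in hGFAP-Gnas (limma, adjusted p = 0.117). The semaphorin co-receptor gene Nrp1 rose by 1.32 ± 0.28 and 1.15 ± 0.32, and the contactin-binding phosphatase gene Ptprg by 1.05 ± 0.19 in Olig1-Gnas, beside 0.88 ± 0.36 in hGFAP-Gnas (limma, adjusted p = 0.0693).

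Of the growth cone and postmitotic granule cell genes, the list nearest to Dcx in role, 13 of 22 rose and 2 fell in Olig1-Gnas (median 1.17), and 11 of 24 rose and 2 fell in hGFAP-Gnas (0.77). Basp1, of growth cone membranes, rose from 9.67 ± 4.86 FPKM to 361 ± 77.0 FPKM (5.16 ± 0.25) and 343 ± 149 FPKM (4.91 ± 0.55), and Marcksl1 (4.34 and 3.84), the chemokine receptor gene Cxcr4 (4.65 and 3.69) and Nnat (3.68 and 2.84) rose too. The transcription factor gene Neurod2 (-2.97 ± 0.85 and -2.06 ± 0.66) and Pard6a (-1.18 ± 0.26 and -0.75 ± 0.21) fell. Gap43, the classic growth cone gene, was not called, at 153 ± 16.5 FPKM in Ctrl, 192 ± 54.4 FPKM in Olig1-Gnas (limma, adjusted p = 0.369) and 201 ± 55.2 FPKM in hGFAP-Gnas (adjusted p = 0.304), and was named after its values were seen.

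Neurofilament and axon genes of mature neurons fell in 12 of 13 cases in Olig1-Gnas (median -3.57) and in 7 of 13 in hGFAP-Gnas (-1.98), and none rose. Nefl fell from 120 ± 51.2 FPKM to 12.1 ± 16.7 FPKM in Olig1-Gnas (-4.57 ± 1.30), and Nefm (-4.24), Nefh (-4.05) and Ank1 (-3.99) followed. In hGFAP-Gnas the 3 neurofilament genes were not called, at -2.51, -1.98 and -2.44 (limma, adjusted p of 0.0917 to 0.111). In hGFAP-Gnas the called genes with the largest falls were the synaptic genes Syt1 (-3.20 ± 0.74) and Snap25 (-2.35 ± 0.76), the surface gene Thy1 (-2.32 ± 0.82) and Ank1 (-2.12 ± 0.71), and Syt1, Snap25 and Thy1 fell in Olig1-Gnas by 3.97, 3.58 and 3.57 on the log2 scale. Between the knockouts no gene of these 6 lists was called by limma, in 14 other tubulins, 19 other microtubule-associated genes, 37 end and modification genes, 19 adhesion genes, 23 growth cone genes and 13 axon genes tested. Called genes of the members, pathway lists and marker lists together numbered 167 in Olig1-Gnas and 122 in hGFAP-Gnas. None of them turned direction under quantile normalization or upper quartile scaling.

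**Figure D5:**
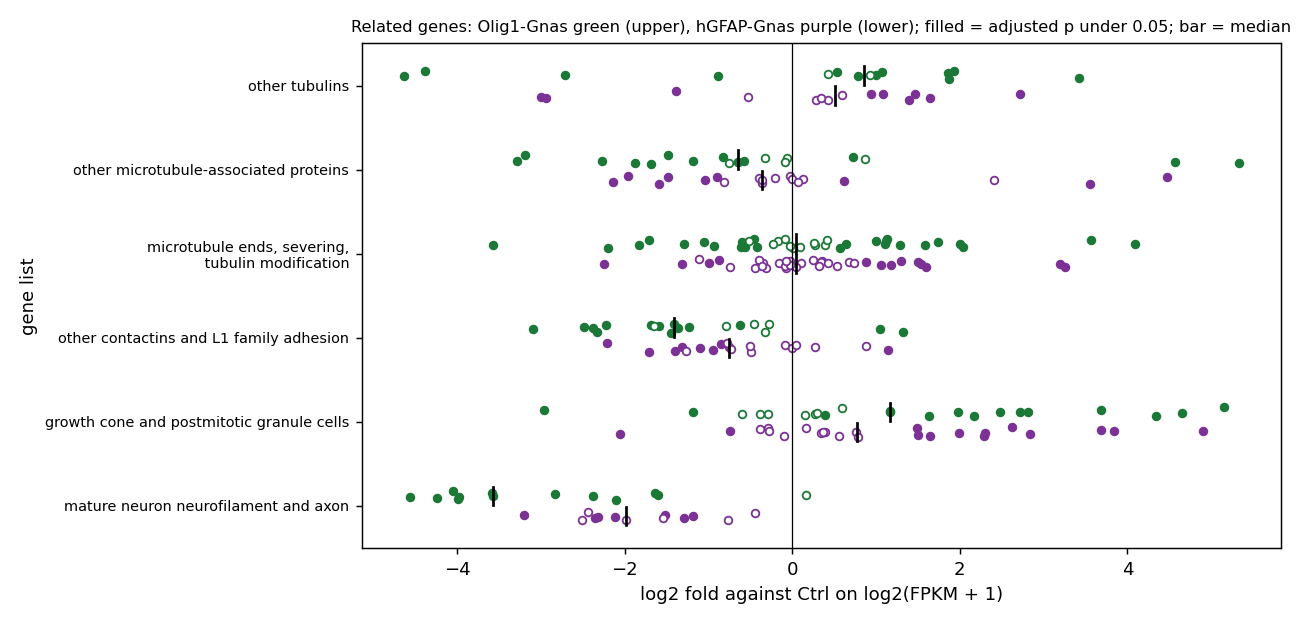
Log2 fold of FPKM + 1 against Ctrl for the tested genes of 6 related lists, 1 point per gene, in Olig1-Gnas (green, upper) and hGFAP-Gnas (purple, lower), filled where adjusted p is under 0.05 and with a bar at the list's median. The medians run from -3.57 for mature axon genes to 1.17 for growth cone genes in Olig1-Gnas.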

How the data were processed

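The values are FPKM per gene, deposited by the authors in 1 table per knockout, each holding its 8 knockout libraries and the 3 Ctrl libraries. TopHat and Cufflinks and the mouse build mm9 are named in the submitters' processing notes, without versions; per the labels' protocols, RNA was extracted with Trizol, purified on columns and made into TruSeq libraries. Not given in the sources used here are strand settings, the splitting of reads between gene copies and read totals; reads of overlapping or antisense genes therefore cannot be told apart.

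From these values log2(FPKM + 1) was computed and fitted with limma 3.58.1 in R 4.3.3 (trend and robust moderation), 2 groups at a time, keeping genes that reached 1 FPKM in 3 or more libraries. The p-values are two-sided and were adjusted by the Benjamini-Hochberg method over all genes tested, with calls at under 0.05. Each library was taken as 1 mouse, so the spread is read as that between animals. Libraries hGFAP-Gnas 5 and 6 stood close in marker sums (704 and 701 FPKM for mitosis, 368 and 363 FPKM for mature granule neurons). Whether any libraries share tissue was not tested. Ratios within a library and correlations over libraries were tested by exact permutation (Python 3.11.15, SciPy 1.17.1), with 9, 20 and 90 tests adjusted together. Pearson's r and Spearman's rho were adjusted separately, each over the 20 or the 90 tests. The fit was tested on simulated data. Planted log2 changes of 1 and 2 were recovered in 66 and 92% for Olig1-Gnas against Ctrl (14183 genes). Recovery was 41 and 79% for hGFAP-Gnas against Ctrl (14305 genes) and 72 and 93% between knockouts (14386 genes). False calls numbered 12, 4 and 6. Changes were planted in a small part of the genes, all above a minimum mean level, whereas many more genes were called against Ctrl in the data. These shares therefore describe the simulated setting and not the power for the members.

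The members and lists were chosen with earlier results of these data known. Named are all 10 members, up to 4 called genes of each list with the largest fold in each direction, and for Dcx, Tubb3, Map2 and Cntn2 the 3 genes most like them, of which 1 is not reported here; other names are marked as chosen after their values were seen. Alternatives covered the offset, the filter, scaling, moderation, thresholds, a fit over the 3 groups, zeros as missing, depth class, Y-linked signal, a replicate block and leaving out each library. An exact 0 in these tables can be a failed estimate; no member had one. Ctrl 1 differs between the tables in 5106 genes, in no member by over 0.1%.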

Additional observations from a re-analysis of the deposited data

Results flagged for a closer look

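In 26 groups of 8 libraries (10 members and 3 ratios in each knockout), 9 had a library farther from the others than Dixon's 95% limit for 8 values allows; chance alone gives about 1 in 20. hGFAP-Gnas 1 was low for Tubb2b, at 79.1 FPKM where the other 7 libraries held 313 to 723 FPKM, and for Stmn1, at 162 FPKM beside 845 to 1572 FPKM. Its ratio of Tubb2b to Tubb3 was 0.442, beside 1.11 to 1.37.

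Olig1-Gnas 3 was low for Stmn2, at 50.9 FPKM beside 123 to 218 FPKM, and for Cntn1, at 5.67 FPKM beside 25.9 to 51.5 FPKM, and its Stmn1 to Stmn2 ratio was 26.5, beside 5.87 to 10.5. hGFAP-Gnas 3 was low for Stmn2, at 57.7 FPKM beside 226 to 375 FPKM, and for Stmn4, at 19.8 FPKM beside 71.5 to 120 FPKM. The Cntn2 to Cntn1 ratio of Olig1-Gnas 6 was 0.216, beside 1.40 to 4.11 in the other 7 libraries.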

How the results depend on the processing

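Higher members in Olig1-Gnas numbered 4 and Dcx, Tubb3, Tubb2b, Stmn1 and Mapt held their calls under all 26 alternatives run, of which the shallower libraries have a lone Ctrl library, assumed to vary like the knockouts; the 3 lower members became 1 in the shallower libraries (Stmn2 -1.51, Cntn1 -2.31, not called). In hGFAP-Gnas the 4 higher members became 1 at adjusted p under 0.01 and 0 in the deeper libraries, and ranged from 1 to 5 with 1 library left out. The 1 lower member became 2 under upper quartile scaling, 3 with Y-linked signal as a term, 0 at adjusted p under 0.01, with a 2-fold minimum, in the joint fit, in the deeper and in the shallower libraries, and 0 to 2 with 1 library left out. Between knockouts the 0 higher members became 1 in the joint fit and 0 to 1 with 1 library left out, the 1 being Mapt. Scaling moved the median of all genes from 0.22 to 0.06 (quantile) and 0.04 (upper quartile) in Olig1-Gnas and from 0.19 to -0.01 and 0.04 in hGFAP-Gnas.

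Same-numbered libraries share only a number (their deviations from the group means correlated by -0.18 to 0.25). The fit with the replicate block uses the numbers present in both groups: in hGFAP-Gnas 0 members were higher and 0 lower, where 2 of all genes were called, and between knockouts 1 (Mapt) was higher. No called member turned. With the block, Stmn4 (0.056), Map2 (-0.039) and Cntn2 (0.066) turned in Olig1-Gnas and Stmn4 (-0.58) and Cntn2 (-0.64) in hGFAP-Gnas, none of them called. The block also left the ratio differences at 0.99 (Tubb2b to Tubb3, Olig1-Gnas), 4.21 and 2.70 (Stmn1 to Stmn2, Olig1-Gnas and hGFAP-Gnas), with too few arrangements to pass. A library correlated best with its own number in 1 of 3, 2 of 3 and 2 of 8 cases, in the order Olig1-Gnas, hGFAP-Gnas and between knockouts.

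Other values that turned, none called, were in Olig1-Gnas Map2 (-0.069 quantile, -0.047 upper quartile, -0.056 shallower), Stmn4 (0.29 shallower, -0.30 to 0.041 leaving 1 out) and Cntn2 (0.14 shallower, 0.13 Y-linked term, -0.17 to 0.26 leaving 1 out). In hGFAP-Gnas they were Stmn4 (-0.031 quantile, -0.075 upper quartile, -0.36 deeper, -0.20 Y-linked term) and Cntn2 (-0.17 deeper). Between knockouts they were Dcx (0.43 shallower, -0.32 to 0.31 leaving 1 out), Tubb3 (0.15 quantile, 0.12 shallower, -0.14 to 0.082), Tubb2b (0.027 quantile, 0.14 shallower, -0.36 to 0.099), and with the Y-linked term Stmn2 (-0.19), Stmn4 (-0.41) and Cntn2 (-0.45). The cause was not tested.

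In the deeper and shallower libraries the ratio differences from Ctrl were 0.85 and 1.26 (Tubb2b to Tubb3, Olig1-Gnas), 3.62 and 4.2 (Stmn1 to Stmn2, Olig1-Gnas) and 2.64 and 3.10 (hGFAP-Gnas), not called because few arrangements remain. Leaving 1 library out gave 0.89 to 1.08, 3.68 to 4.0 and 2.58 to 3.24 for these, all 3 losing their call without any 1 Ctrl library (adjusted p = 0.0545, 0.0545 and 0.0667, exact permutation); 0.72 to 1.02 for Tubb2b to Tubb3 in hGFAP-Gnas; and 1.60 to 2.17 and 1.15 to 1.54 for Cntn2 to Cntn1. Between knockouts Tubb2b to Tubb3 was 0.019 in the shallower libraries and -0.25 to 0.016 leaving 1 out, and Stmn1 to Stmn2 -1.32 to -0.67. FPKM without read totals give no counting interval, and 3 Ctrl libraries limit every comparison with them.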
